A study of Mus musculus with 22 samples.

Results

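SR proteins and heterogeneous nuclear ribonucleoproteins (hnRNPs) are classical groups of RNA-binding proteins that set which exons are kept in messenger RNA. The genes described here were chosen by symbol alone, Srsf followed by digits or a symbol that starts with Hnrnp, and no measured value entered the symbol rule, although this set of genes was taken up with earlier results of these data known. They number 31 of the 18487 genes in the table, 11 SR genes and 20 hnRNP genes, and all 31 passed the filter on low values. Poly(A)-selected RNA was sequenced from E14, a mouse embryonic stem cell line, in 22 libraries that form 11 groups of 2. One group was labelled NC, names no compound and served as the reference. The 10 others were each labelled with 1 compound, and all groups share the same line with no other allele or agent named.

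MS023 blocks type I protein arginine methyltransferases, the enzymes that place asymmetric dimethylarginine on proteins. DZNep raises S-adenosylhomocysteine and thereby restrains methyltransferases in general, and UNC0379 acts on the lysine methyltransferase SETD8. Chaetocin is used against histone lysine methyltransferases and IOX1 against oxygenases that depend on 2-oxoglutarate, histone demethylases among them. Valproate is a histone deacetylase inhibitor, Garcinol and CPTH2 are used against histone acetyltransferases, and Bromosporine occupies the bromodomains that read acetylated lysine. The label OICR does not spell out a compound. Neither dose nor exposure time was given, and the labels do not say whether the paired libraries came from separate cultures, so the p-values below measure only the spread between these libraries, which may be technical.

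As background, SR proteins carry a domain rich in arginine and serine, bind exonic enhancers and mostly promote exon inclusion, and kinases of the SRPK and CLK families phosphorylate them. Many hnRNPs, such as Hnrnpa1 and Hnrnpa2b1, carry arginine and glycine repeats that are substrates of type I arginine methyltransferases, and they often repress exons. Both groups regulate their own transcripts, many of which hold poison exons, cassette exons with a premature stop codon that send the RNA to nonsense-mediated decay. The measurement here is the amount of RNA per gene. It reports neither protein methylation nor the choice of isoform.

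Among the 31 genes, 19 (61.3%) had at least 1 annotated transcript destined for nonsense-mediated decay, against 25.5% of the 15239 protein-coding genes of the table found in the annotation. A transcript with a retained intron was annotated for 22 of the 31 (71.0%) and for 52.9% of those genes. Their RefSeq promoters were rich in CpG. Windows of 300 bases around the annotated start (GRCm38) were found for 29 of the 31 genes, 41 windows in all, with a median of 31 CpG and 68.3% G and C, against 18 CpG and 59.7% over 15523 windows of the table's genes. The letters GGGCGG, the core of the SP1 motif, stood on either strand in 34 of the 41 windows (82.9%), compared with 57.3% of all windows. The cAMP response element motif TGACGTCA was present in 0 of the 41 and in 2.71% of all windows. These matches describe letters and not binding. Hnrnpr and Srsf9 are shown because they are among the few members whose RNA passed a test, and the windows shown differ in how many copies of that core they hold. Another Hnrnpr window and that of Hnrnph3, which also passed a test, hold the core too. They are not shown because an annotated exon lies in the bases before the start, so the copies of Hnrnpr are counted in only 1 of its windows. Each line gives the 250 bases before the start on the plus strand, with GGGCGG, or its reverse complement CCGCCC, in capitals, 1 copy for Hnrnpr (chr4:136310692-136310941, mm10) and 3 copies for Srsf9 (chr5:115326927-115327176, mm10).
Hnrnpr: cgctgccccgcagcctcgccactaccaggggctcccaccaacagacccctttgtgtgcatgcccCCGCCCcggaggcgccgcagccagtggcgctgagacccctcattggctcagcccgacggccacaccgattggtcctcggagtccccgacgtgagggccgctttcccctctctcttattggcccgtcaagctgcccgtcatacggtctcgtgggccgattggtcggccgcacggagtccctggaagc
Srsf9: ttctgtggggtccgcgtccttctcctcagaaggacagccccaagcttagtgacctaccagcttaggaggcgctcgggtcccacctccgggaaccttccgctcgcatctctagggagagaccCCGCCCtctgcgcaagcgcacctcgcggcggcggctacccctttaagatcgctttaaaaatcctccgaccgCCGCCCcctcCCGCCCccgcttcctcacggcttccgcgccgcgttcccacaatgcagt

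Values are read counts that the authors normalized so that every library has the same distribution, and they are not corrected for gene length. Per kilobase of the longest coding transcript, the highest levels in the NC group were those of Hnrnpa2b1 (31200), Hnrnpa1 (31100) and Hnrnpf (26400), the first 2 being core hnRNPs that bind pre-mRNA along its length and the last a reader of G runs. Hnrnpa2b1 and Hnrnpa1 did not differ beyond the steps in which their values came. Hnrnpk, which binds C-rich RNA through KH domains, followed with 14100, then the SR genes Srsf5 (13000) and Srsf3 (12300). At the other end stood Hnrnph2 (425), Hnrnpr (178, over an annotated coding transcript of 21452 bases) and Srsf12 (16.8), a small SR-related gene. Without length correction Srsf12 held 25 to 85 over the 22 libraries, with a median of 50.5.

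The normalization gives equal ranks equal values, so that highly expressed genes move in coarse steps. Hnrnpa2b1 took only 3 distinct values over the 22 libraries and Hnrnpu 4, while Hnrnph2 took 21, and the median was 14 for the 31 members and 20 for all tested genes. The median step between neighbouring values was 13.1% for Hnrnpf, 11.4% for Hnrnpa1 and 9.68% for Hnrnpa2b1. Differences of that size in these genes are at the limit of the table. The least variable member was Hnrnpa2b1, whose highest library was 1.2 times its lowest, and the most variable was Hnrnpa3, with a ratio of 5.67. Libraries of 1 group could lie far apart, as for Srsf2 with Valproate (13763 and 30736) and Hnrnpa3 with IOX1 (59516 and 32065). Fewer cells of a type and less RNA per cell cannot be told apart in these bulk samples. The 10 embryonic stem cell markers summed to 178012 to 284402 per library. Markers of fibroblasts or feeder cells summed to 99 to 1938 and those of primitive endoderm to 219 to 739. Neural cell markers summed to 780 to 4671 and blood cell markers to 47 to 746. The fibroblast gene Dcn and the globin gene Hbb-bs were at 0 in every library, but others of their lists were not. Col3a1 ran from 2 to 851, Thy1 had 358 and 303 with Valproate against 12 and 11 in NC, and Ptprc had 438 in DZNep replicate 2.

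**Figure D1:**
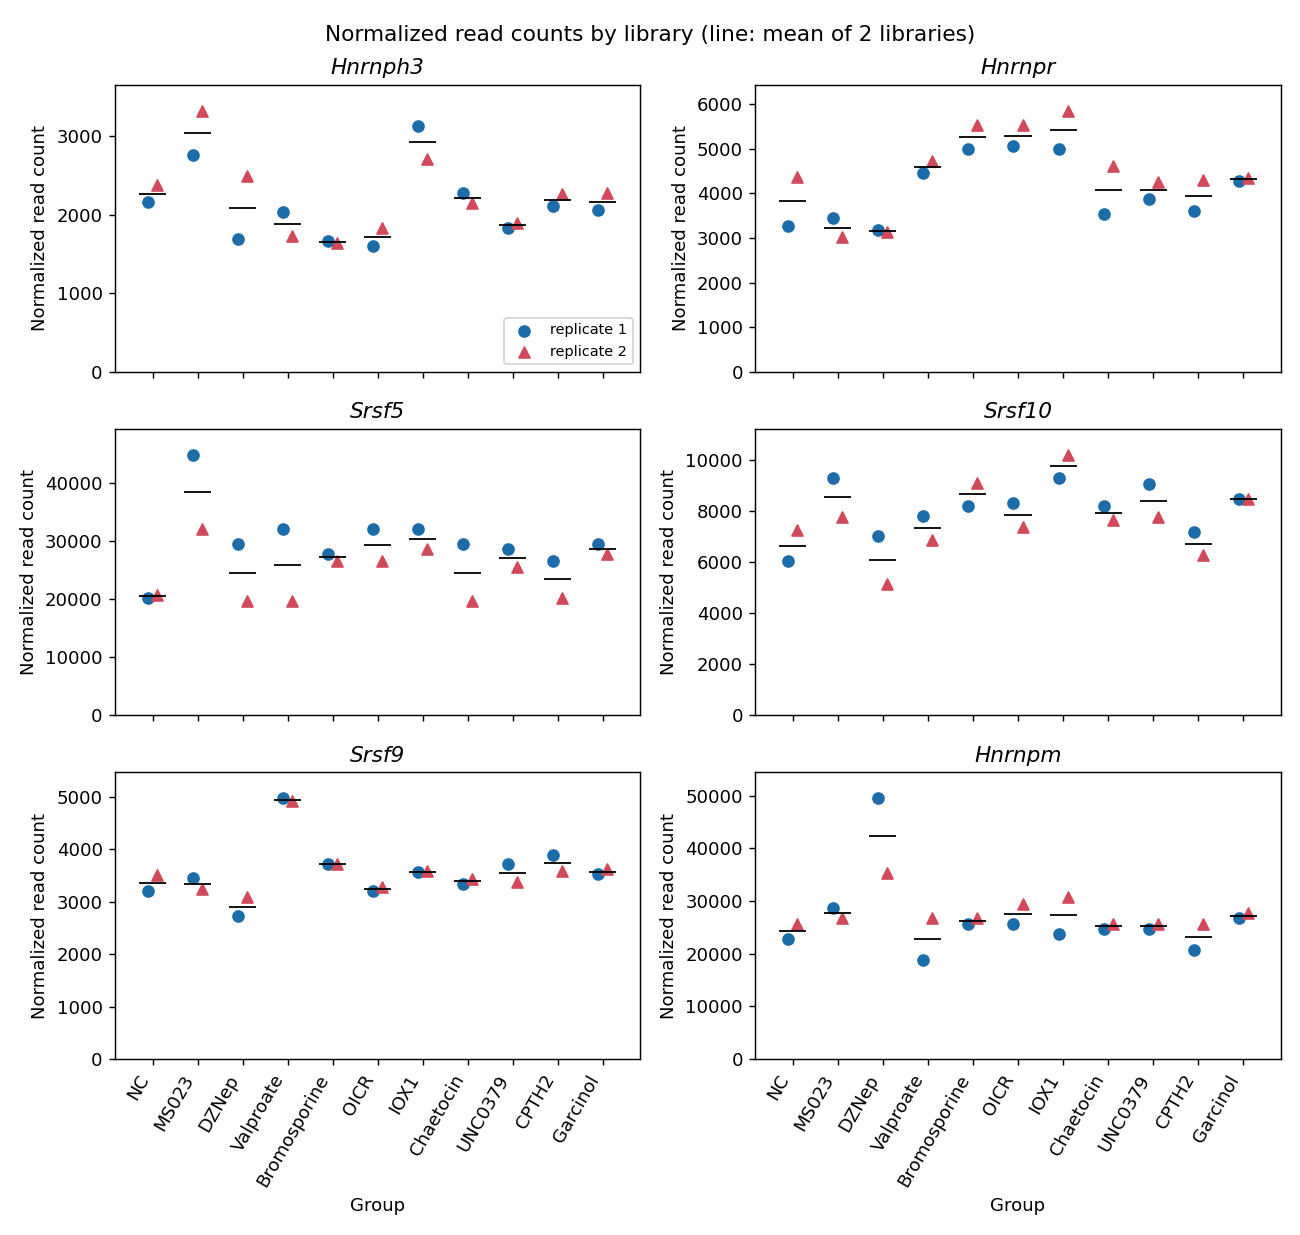
Normalized read count of 6 members, Hnrnph3, Hnrnpr, Srsf5, Srsf10, Srsf9 and Hnrnpm, in each group, with replicate 1 as circles, replicate 2 as triangles and the group mean as a line, on axes that start at 0. Srsf9 stands out with Valproate (4971 and 4914), Hnrnpm with DZNep (49460 and 35330) and Srsf5 with MS023 (44793 and 31970), where the replicates lie far apart.

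With MS023, the inhibitor of the enzymes that methylate many of these proteins, no member was called changed in RNA amount in the fit without the replicate number. None of the 31 passed the limma test at a Benjamini-Hochberg adjusted p under 0.05, either higher or lower, and 4 of the 31 had an unadjusted p under 0.05, as did 15% of all tested genes. Over all 17275 genes tested, 0.863% were higher and 1.34% lower. The median change of the members was 0.12 on the log2 scale, 0.13 for the SR genes and 0.12 for the hnRNP genes, beside -0.01 for all genes, and 21 of 31 were positive. Both MS023 libraries lay above both NC libraries for 14 members and below them for 3, against 21.8% and 23.6% of all tested genes. The 95% confidence interval of the change stayed within a 2-fold difference in either direction for 28 of the 31, the exceptions being Srsf5, Srsf12 and Hnrnpc, and within 1.5-fold for 15. The stem cell markers summed to 194872 and 178012 with MS023, the latter the lowest library of all, and to 214081 and 213620 in NC, and their part in these values was not tested.

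Srsf5, an SR protein also known as SRp40, had the smallest p. It measured 20208 and 20665 in NC and 44793 and 31970 with MS023. The groups did not overlap, and the replicates with MS023 lay further apart than those of NC. The change was 0.89 on the log2 scale (SE 0.26, 95% interval 0.33 to 1.45, 1.85-fold) with a limma adjusted p of 0.11, so it did not pass. That fit left the replicate number out, and the call with the number as a block, which differs, is given at the end. The other 18 libraries with a compound held 19688 to 31970, median 27687, and 15 of them were below both MS023 libraries. The fitted change of Srsf5 was positive with each of the 10 compounds, and 16 of the 20 compound libraries exceeded both NC libraries, a set of comparisons that share those 2 NC libraries. Other members did much the same. Hnrnpa0 was also positive with all 10, and 15 libraries exceeded both NC libraries for Srsf10 and 14 for Hnrnpa0. For Srsf4, 18 of the 20 lay below both. The share over all genes was not computed. The Srsf5 transcript shares 36% of its 31-base stretches with the gene model Gm12966, so reads of the 2 may be split. Over 10% was shared with other genes by 14 of the 31 members, among them Hnrnpf (70.6%), Hnrnpa1 (49.3%), Srsf2 (36.9%) and Hnrnph2 (24.7%).

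The 3 other members with an unadjusted p under 0.05 all had positive changes. Hnrnph3 and Hnrnph2, members of the hnRNP H and F family that binds G runs, changed by 0.42 each (SE 0.16, adjusted p = 0.221, and SE 0.19, adjusted p = 0.321, limma). Srsf10, a splicing repressor when it loses its phosphates, changed by 0.36 (SE 0.16, adjusted p = 0.287, limma). The lowest member was Srsf4, with 8973 in both NC libraries and 6341 and 7199 with MS023, a change of -0.41 (adjusted p = 0.402, limma). The gene model Gm12992 on the opposite strand shares 66.5% of its 31-base stretches, and without strand in the counting the reads of both cannot be told apart.

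**Figure D2:**
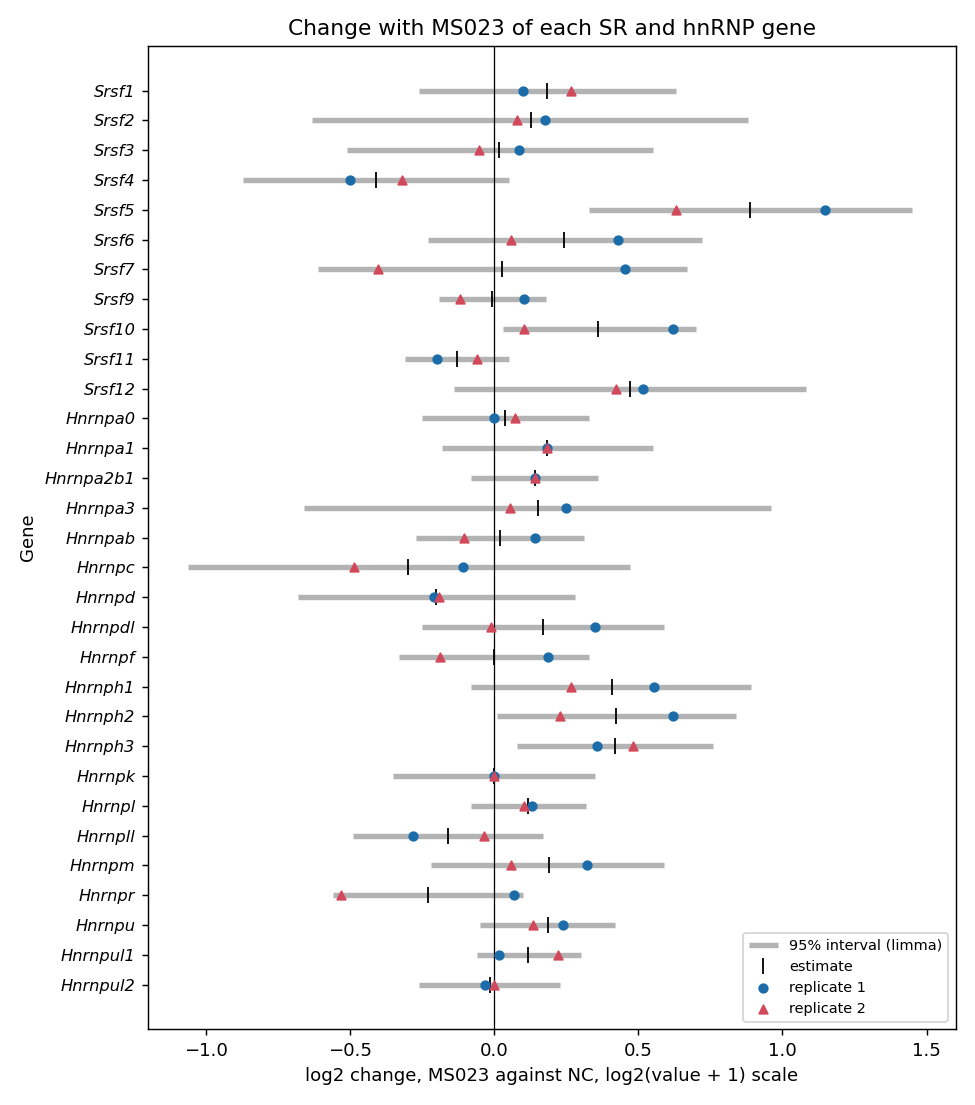
Change of each SR and hnRNP gene between MS023 and NC on the log2(value + 1) scale, with the estimate as a tick, its 95% interval from limma as a grey bar, and the change between libraries of replicate number 1 (circles) and 2 (triangles). Srsf5 has the largest estimate, 0.89 with an interval from 0.33 to 1.45, and Srsf4 the lowest, -0.41.

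A second comparison asked which members set MS023 apart from the 9 other compounds, without the NC libraries. Hnrnph3 was higher and Hnrnpr, a relative of Syncrip that binds RNA in nucleus and cytoplasm, was lower, and no other member passed. Of the members, 4 had an unadjusted p under 0.05, as did 21.5% of all genes. Of all genes tested, 4.31% were higher and 4.64% lower, and 1 of 31 members in each direction is close to these shares. The median change of the members was 0.03, against 0.01 for all genes.

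Hnrnph3 (chr10:63014664-63024217, mm10, minus strand) had 2764 and 3321 with MS023 and 2160 and 2379 in NC. The 18 libraries of the other compounds held 1601 to 3130, with a median of 2046.5. All but 1 of these were below both MS023 libraries, the exception being the IOX1 replicate 1 library at 3130. The change was 0.57 (SE 0.12, 1.48-fold, adjusted p = 0.00951, limma). It passed against each mean of 8 compounds, with adjusted p from 0.00537 to 0.0153, but was 0.44 with an adjusted p of 0.233 without MS023 replicate 2. Exons of Hnrnph3 overlap those of Rufy2 on the opposite strand, and 4.44% of its 31-base stretches are shared with Rufy2 or Hnrnph1. Rufy2 had 766 and 627 in NC and 856 and 748 with MS023, a change of -0.01 against the other compounds (adjusted p = 0.989, limma).

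Hnrnpr (chr4:136310942-136359447, mm10, plus strand) had 3438 and 3027 with MS023 and 3274 and 4374 in NC, so the MS023 and NC values overlapped. The 18 other compound libraries held 3137 to 5847, with a median of 4404. Of these, 16 were above both MS023 libraries and the other two were the DZNep libraries, 3173 and 3137. The change was -0.44 (SE 0.12, adjusted p = 0.029, limma). It did not pass without MS023 replicate 1 (-0.54, adjusted p = 0.104) or without MS023 replicate 2 (-0.35, adjusted p = 0.375). The comparison then held 1 passing member without MS023 replicate 1, Hnrnph3, and 0 without MS023 replicate 2. Hnrnpr was highest with IOX1 (5004 and 5847), OICR (5055 and 5522) and Bromosporine (5004 and 5522), groups that overlap one another. Exons of Hnrnpr overlap those of Gm27022 on the opposite strand, and 8.99% of its 31-base stretches are shared with other genes, 2789 in all.

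Among genes of related function, taken from lists written from general knowledge, none passed with MS023 against NC. The nonsense-mediated decay list also holds the noncoding RNA genes Gas5, Snhg1 and Snhg12. That of arginine methyltransferases also holds Wdr77, a partner of Prmt5 and not itself such an enzyme. Counts from these lists include them. Of 45 other splicing regulators, 8 tested kinases of SR proteins, 42 core spliceosome genes, 18 nonsense-mediated decay genes and 10 arginine methyltransferases, 0 passed with limma, where 7, 0, 1, 1 and 1 of these lists in turn had an unadjusted p under 0.05. Over all tested genes 0.863% passed as higher and 1.34% as lower, and 15% had an unadjusted p under 0.05. The smallest adjusted p was that of Elavl1, 0.0514, which became 0.0467 with a pseudocount of 10 and 0.00799 without a filter on low values. Against the 9 other compounds, 1 splicing regulator was higher and 2 lower, 2 core spliceosome genes and 1 decay gene were lower, and 0 of the kinases (1 at an unadjusted p under 0.05) and 0 of the arginine methyltransferases (2) passed. Of all tested genes, 4.31% were higher and 4.64% lower in that comparison, and 21.5% had an unadjusted p under 0.05. Taf15, a FET-family protein with arginine and glycine repeats, had 18326 and 21296 with MS023 and 12877 and 14700 in NC, above the 8457 to 14700 of the 18 other compound libraries. Its change was 0.81 (SE 0.14, adjusted p = 0.00325, limma). Elavl1, which stabilizes AU-rich messages, was lower by -0.24 on the log2 scale (adjusted p = 0.0145, limma) and Pcbp1, a binder of C-rich RNA, by -0.33 (adjusted p = 0.0245, limma). Upf1, the helicase of nonsense-mediated decay, changed by -0.35 (adjusted p = 0.00916, limma), with 4650 and 4520 against 5068 and 6054 in NC. The spliceosomal genes Snrnp27 and Snrpe changed by -0.34 and -0.62 (adjusted p = 0.0211 and 0.0244, limma). None of these but Taf15 passed without MS023 replicate 1, and none of the 6 passed without MS023 replicate 2.

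With DZNep 10.7% of tested genes were higher and 12.8% lower, whereas 1 member was higher and 0 were lower (limma). An unadjusted p under 0.05 was held by 5 members and by 35.4% of all tested genes. The median size of a member's change, sign left aside, was 0.17 with DZNep and 0.46 over all genes. The members had the smaller median with each of the 10 compounds, as with Chaetocin (0.092 and 0.204) and CPTH2 (0.062 and 0.105). Most members lie far above the library median of 409, where values move in coarse steps. No set of genes of like level was compared, so the smaller changes cannot be read as particular to these genes. Hnrnpm (chr17:33646233-33686860, mm10, minus strand), an hnRNP that binds GU-rich RNA and is tied to splicing in epithelial to mesenchymal transition, rose. It had 22878 and 25671 in NC and 49460 and 35330 with DZNep. The groups did not overlap, and the change was 0.79 (SE 0.19, 1.72-fold, adjusted p = 0.0082, limma). The call was lost without NC replicate 1 (0.70, adjusted p = 0.0766) and without DZNep replicate 1 (0.54, adjusted p = 0.0847), and was not reached in a fit of DZNep and NC alone (adjusted p = 0.164). Hnrnpm shares 29.2% of its 31-base stretches with March2, which overlaps it on the same strand and had 866 and 1079 in NC and 617 and 1179 with DZNep (adjusted p = 0.669).

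The lower members with DZNep did not pass. Hnrnpa3, a paralog of Hnrnpa1, had 30846 and 26697 in NC and 20726 and 10491 with DZNep, a change of -0.96 (SE 0.38, adjusted p = 0.0818, limma). Srsf12 changed by -0.70 (adjusted p = 0.0893), Hnrnpll, a regulator of exon skipping in lymphocytes, by -0.40 (adjusted p = 0.0709) and Srsf9 by -0.21 (adjusted p = 0.0936). Hnrnpa3 passed without DZNep replicate 1 (-1.45, adjusted p = 0.0283), and Hnrnpll (-0.66, adjusted p = 0.00742) and Srsf9 (-0.30, adjusted p = 0.0407) passed without DZNep replicate 2. Leaving out libraries moved the number that passed, from 1 to 0 without NC replicate 1, to 2 without DZNep replicate 1 and to 4 without DZNep replicate 2. In the related lists, 11 of 42 core spliceosome genes were higher with DZNep and 1 lower, with a median of 0.29. Of the 45 other splicing regulators 3 were higher and 6 lower, of the 18 decay genes 3 and 1, of the 10 arginine methyltransferases 1 and 3, and 0 of the 8 kinases passed, 2 of them at an unadjusted p under 0.05. The stem cell marker sums were 275811 and 284402 with DZNep and 214081 and 213620 in NC. The markers did not move alike, with Nanog at 92251 and 123367 against 44793 and 59405 and Dppa5a at 28606 and 30833 against 41903 and 39262. The fibroblast sums were 1669 and 1938 against 745 and 1476, and the blood cell sums 213 and 746 against 71 and 113. The neural sums were 3881 and 4671 against 1147 and 2987, and the primitive endoderm sums 467 and 739 against 454 and 364. The part of such cells in the values of the members was not tested.

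**Figure D3:**
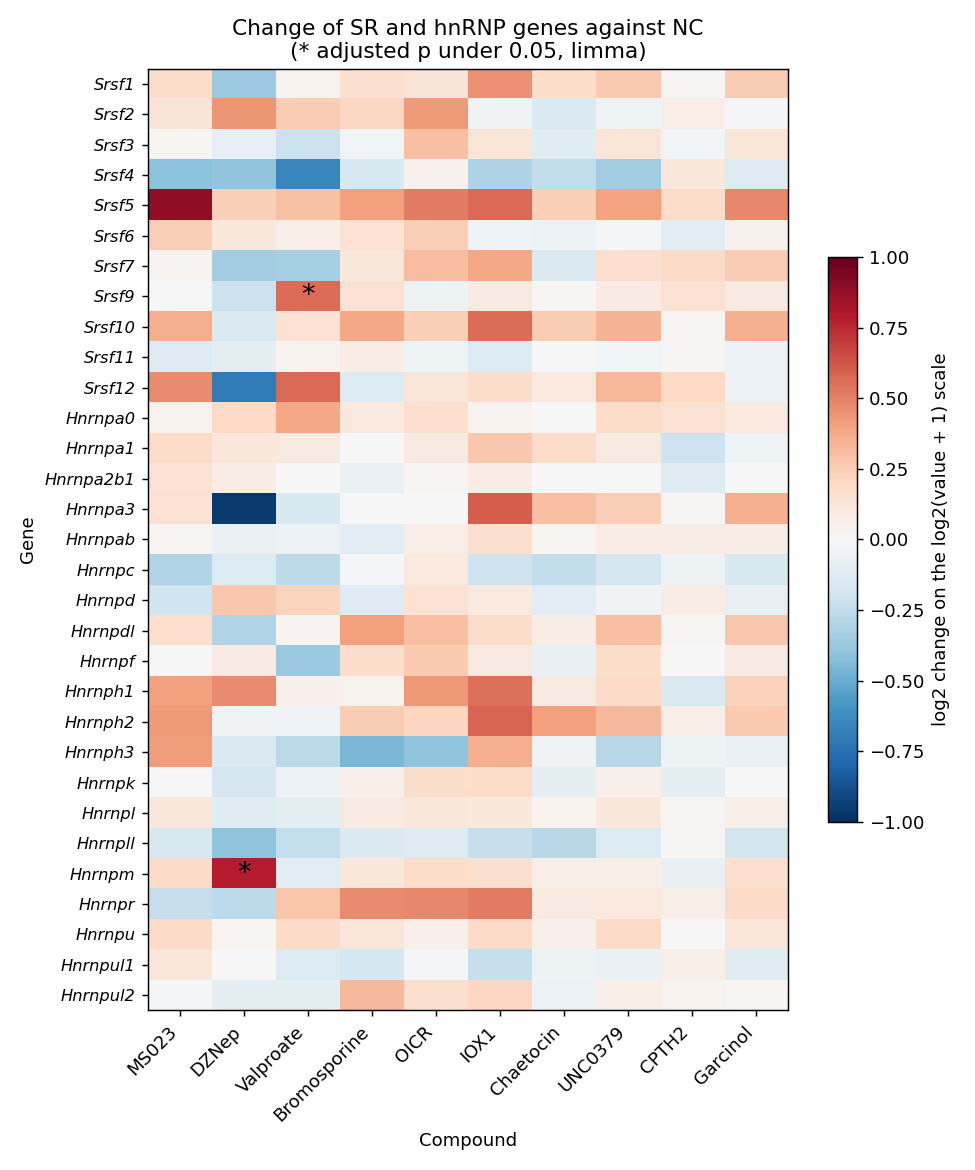
Change of each of the 31 genes against NC with each of the 10 compounds, on the log2 scale, compounds in columns and genes in rows, red for higher and blue for lower, with an asterisk at an adjusted p under 0.05. The asterisks stand at Hnrnpm with DZNep (0.79) and Srsf9 with Valproate (0.56), and all 10 columns share the 2 NC libraries.

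Valproate raised 1 member and lowered 0, where 5.13% of all tested genes were higher and 5.18% lower. An unadjusted p under 0.05 was held by 4 members and by 24.1% of all tested genes. Srsf9 (chr5:115327177-115333080, mm10, plus strand), a small SR protein close to Srsf1, had 3212 and 3514 in NC and 4971 and 4914 with Valproate. No library of another compound reached these values. The change was 0.56 (SE 0.09, 1.47-fold, adjusted p = 0.00134, limma), and it passed with each library left out in turn, whereas a fit of Valproate and NC alone gave an adjusted p of 0.163. Without Valproate replicate 2, 2 members passed. Srsf9 shares no 31-base stretch with another gene and overlaps none. Srsf4 had 8973 in both NC libraries and 4389 and 7425 with Valproate, a change of -0.65 that did not pass (adjusted p = 0.0696, limma) but did so without Valproate replicate 2 (-1.03, adjusted p = 0.00794). Hnrnpa0 changed by 0.39 (adjusted p = 0.0849, limma). Among the related lists 2 splicing regulators were higher and 2 lower, 1 core spliceosome gene and 1 decay gene were higher, 1 arginine methyltransferase was lower and 0 of the 8 kinases passed, 2 of them at an unadjusted p under 0.05.

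With the 7 other compounds none of the 31 genes passed in either direction (limma). Bromosporine had 1.61% of all genes higher and 3.79% lower, and 4 members at an unadjusted p under 0.05, beside 19% of all genes. Hnrnpr had the smallest p, with 5004 and 5522 against 3274 and 4374 in NC, a change of 0.47 (adjusted p = 0.0965, limma), which passed without NC replicate 2 (0.68, adjusted p = 0.0472), making 1 member in place of 0. OICR had 0.226% higher and 0.411% lower with 2 members at an unadjusted p under 0.05, beside 10.7% of all genes. Hnrnpr again had the smallest p (0.48, adjusted p = 0.226, limma). IOX1 had 0.0405% higher and 0.0868% lower. Of its members 8 had an unadjusted p under 0.05, as did 12.4% of all genes. The smallest p was that of Srsf10, with 9286 and 10193 against 6040 and 7235 in NC (0.56, SE 0.16, adjusted p = 0.17, limma).

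With the remaining compounds few genes of the table passed. Chaetocin had 0.0116% of genes higher and 0.00579% lower, UNC0379 0% and 0%, CPTH2 0.00579% and 0% and Garcinol 0.00579% and 0%. Members at an unadjusted p under 0.05 numbered 0, 1, 0 and 1, beside 4.72%, 6.08%, 0.944% and 3.62% of all genes. The smallest p belonged to Hnrnph2 with Chaetocin (0.41, adjusted p = 0.803), to Srsf10 with UNC0379 (0.34, adjusted p = 0.815) and Garcinol (0.36, adjusted p = 0.967), and to Srsf9 with CPTH2 (0.15, adjusted p = 1), all by limma. One splicing regulator was lower with Bromosporine, and 0 genes of the 5 related lists passed with the other 6 compounds, with 0 to 11 per list at an unadjusted p under 0.05, the 11 being core spliceosome genes with IOX1.

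A moderated F test across the 11 groups asked which members varied with the compounds at all. Of the 31 members 3 passed (limma, Benjamini-Hochberg adjusted), Srsf9 (0.00199), Hnrnph3 (0.00977) and Hnrnpr (0.0103), against 29.7% of all genes, a share that 3 of 31 does not reach. Here too no set of genes of like level was compared. The number was 7 without DZNep replicate 1 and 5 without Valproate replicate 2. Hnrnph3 ran from 1651 ± 25.5 (SD, n = 2) with Bromosporine to 3042.5 ± 394 with MS023, next to which stood IOX1 with 2921 ± 296, within that spread. Hnrnpr ran from 3155 ± 25.5 with DZNep and 3232.5 ± 291 with MS023, which did not differ beyond their spread, to 5425.5 ± 596 with IOX1. Srsf9 ran from 2908.5 ± 250 with DZNep to 4942.5 ± 40.3 with Valproate, and the next highest group was CPTH2 with 3736.5 ± 220.

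Several members also differed between the replicate numbers. The replicate 2 library exceeded the replicate 1 library in all 11 groups for Hnrnpc, which binds uridine tracts, Hnrnpd, a factor of AU-rich decay, and Srsf2. This held for 12.3% of all tested genes, and 3 of 31 members is close to that share. The median difference of replicate 2 from replicate 1 was 0.59 for Hnrnpc, 0.46 for Srsf2 and 0.29 for Hnrnpd on the log2 scale, while Srsf3 and Srsf7 had 0.35 each. No member was lower in replicate 2 in all 11 groups, against 8.75% of all genes. Hnrnpa3 came nearest, lower in 10 groups and equal in 1, with a median of -0.45. For Hnrnpc the MS023 libraries (19230 and 19820) lay closer together than those of any other group, and NC had 20744 and 27752.

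**Figure D4:**
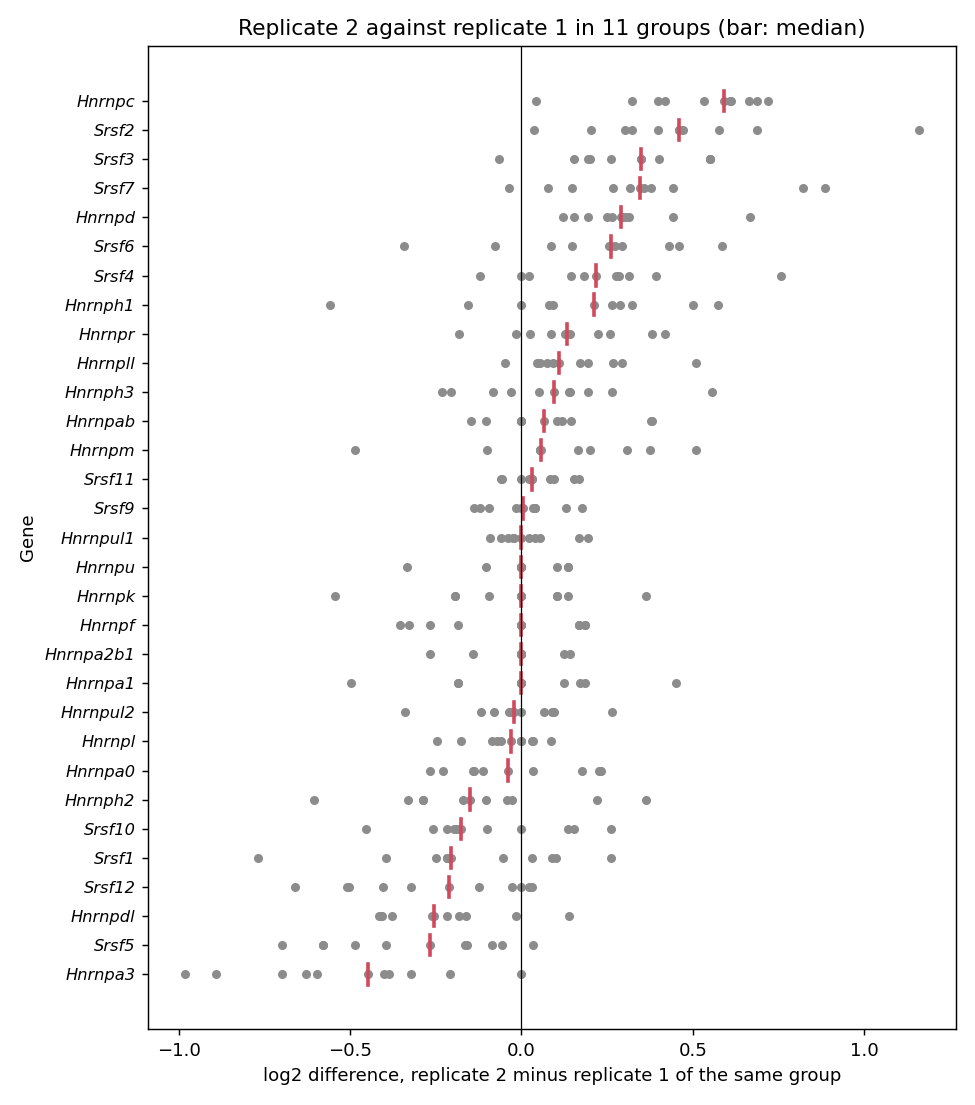
Difference between the replicate 2 and replicate 1 libraries of each group on the log2 scale, 1 point per group and gene, with the median of the 11 groups marked. All 11 points of Hnrnpc, Srsf2 and Hnrnpd lie above 0, and those of Hnrnpa3 lie at or below 0 with a median of -0.45.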

How the data were processed

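RNA was measured in 22 libraries, 2 for each of the 11 groups named in the titles and treatment labels. The deposited values are scores, that is, read counts per gene normalized and then rounded by the authors. The compounds do not appear in the study's methods, which are assumed to apply. They describe Bowtie2 with RSEM on a transcriptome for genes, STAR on mm10 with TEtranscripts for genes and repeats, and full normalization with EDASeq. The labels list Bowtie2 2.2.5 and RSEM for the processing, the tools of the first route. Whether strand was used is not given in the sources used here. The median value was 409 in the lowest and the highest library, so the depth of each library is unknown and no interval or limit that needs it is given. Raw counts were not used here, and DESeq2, the tool of the authors, was not run. A second deposited table held the authors' group means and equalled those computed here.

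The log2(value + 1) of each gene was fitted with limma 3.58.1 under R 4.3.3 (lmFit and eBayes with a trend, 11 group means, 11 residual degrees of freedom). Fold changes are on that scale, which understates changes of low genes. Tested genes reached 10 in 2 or more libraries (17275 of 18487). P-values are two-sided and adjusted by Benjamini-Hochberg over all genes within a contrast, and a gene passed at an adjusted p under 0.05. The fit was tested on simulated data. The symbol rule and the lists were chosen with earlier results of these data known. Members that passed with MS023, up to 8 per other compound and otherwise the member with the smallest p are named, with up to 3 genes of a related list by their p with MS023. Other members were named for their level, spread or next smallest p after their values were seen. Positions, transcripts and 31-base stretches came from GENCODE M21 (mm10), promoters from RefSeq (GRCm38). Python 3.11.15 was used for both. Alternatives were another pseudocount, no filter, rescaling, a fit of 1 compound and NC, the replicate number as a block, another reference, a fold change over 2, and each library left out in turn. The comparison with 8 of the 9 compounds was chosen after seeing the data.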

Additional observations from a re-analysis of the deposited data

How the results depend on the processing

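The counts of SR and hnRNP genes that passed were recomputed under each alternative, and 135 values stayed within 1.5 times the reported count while 27 moved. The 135 include counts of 0 that stayed at 0. With Chaetocin, UNC0379, CPTH2 and Garcinol few genes of any kind passed, so a count of 0 had little room to move. Of 32 single-gene results recomputed in the same way, 0 reversed in direction. Without a filter on low values 2 members passed with DZNep (22.5% of all genes). In fits of 1 compound and NC alone, 0 passed with DZNep (0.562% of all genes) and 0 with Valproate (0.434%). Requiring a fold change over 2 left 0 with DZNep, 0 with Valproate and 0 for MS023 against the other 9 compounds. Against the mean of the other 10 groups in place of NC, 2 passed with MS023 (8.69% of all genes), 8 with DZNep (34%), 3 with Valproate (21%) and 2 with Bromosporine (11.3%). With libraries left out in turn, the counts ran from 0 to 4 with DZNep, 1 to 2 with Valproate, 0 to 1 with Bromosporine, 0 to 1 for MS023 against the other 9 compounds and 3 to 7 for the F test, and were 0 throughout for the 7 other comparisons with NC. The causes were not tested.

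With the replicate number as a block, a replicate block fit, 1 member passed with MS023 (10.2% of all genes), 5 with DZNep (43%), 3 with Valproate (26.7%), 2 with Bromosporine (16.5%), 1 with OICR (4.09%), 2 with IOX1 (5.34%), 5 for MS023 against the other 9 compounds (20.7%) and 13 in the F test (65.9%). The member with MS023 was Srsf5 (adjusted p = 0.00628, limma), which did not pass without the block. In the related lists, the block fit of MS023 against NC called 2 other splicing regulators higher and 3 lower. It also called 1 kinase higher and 1 lower, 1 decay gene and 1 arginine methyltransferase higher, and 0 core spliceosome genes. The deviations of same-numbered libraries correlated by 0.0535 to 0.298 (median 0.196) over 55 pairs of groups, above 0.1 in 51, so the number goes with some shared variation. The labels do not say what the number marks and not every pair exceeded 0.1, and the fit without the block was kept as the reported one. The depth of each library is unknown.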
